A study of Mus musculus with 12 samples.

Results

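Mouse pre-osteoblasts given bone morphogenetic protein 2 (BMP2) and R-spondin 2 (RSPO2) together were compared with cells given vehicle. The comparison rests on 6 of the 12 RNA sequencing libraries of the series, 3 of the BMP2+RSPO2 arm and 3 of the Control arm, chosen by their labels. The cells were MC3T3-E1 subclone 14, 1 clonal line derived from mouse calvaria, so every library shares 1 genetic background. All arms were kept for 5 days in osteogenic medium with 10% serum, 5 mM β-glycerophosphate and 50 µg/mL of a salt of ascorbic acid. The BMP2+RSPO2 arm received BMP2 at 100 ng/ml and RSPO2 at 200 ng/ml. An arm with BMP2 alone at 100 ng/ml and an arm with RSPO2 alone at 200 ng/ml complete the series, and Control received neither protein. The series asks which transcripts the 2 proteins change, singly and jointly, as these cells differentiate. Each gene has 1 FPKM value per library, its fragments divided by transcript length and by the mapped total of the library. Of 39032 genes in the table, the 11548 at 1 FPKM or more in at least 3 of the 12 libraries were tested.

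BMP2 binds paired serine/threonine kinase receptors that phosphorylate SMAD1, SMAD5 and SMAD9, and these move to the nucleus with SMAD4 to switch on genes such as the Id family. R-spondins bind the receptors LGR4, LGR5 and LGR6 and remove the ubiquitin ligases RNF43 and ZNRF3 from the cell surface, which leaves more Wnt receptor there and strengthens β-catenin signalling. Both pathways are known for driving mesenchymal progenitors into the osteoblast lineage, in which the transcription factors RUNX2 and SP7 precede the collagen-rich, later mineralized matrix of bone.

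1 BMP2+RSPO2 library stood apart in RNA composition, and many results that depend on it are also given without it. A result given only with all libraries may still depend on it. In BMP2+RSPO2 replicate 1, transcripts of RNA polymerase III held 19.1% of the summed FPKM, against 0.180% to 2.30% in the other 11 libraries. Protein-coding genes held 32.8% of the sum there and 75.0% to 84.0% elsewhere. The median replication-dependent histone gene stood at 82.8 FPKM there, against 0.93 to 4.02 FPKM elsewhere. The pre-osteoblast markers Runx2, Sp7, Alpl, Col1a1, Col1a2, Sparc and Ibsp were present in all 6 libraries, with 8.30 FPKM of Alpl in Control replicate 3 as the lowest value. The files give no counts, so depth is unknown.

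The combined treatment changed many transcripts, and as deposited far more genes were called lower than higher. A gene was called when its Benjamini-Hochberg adjusted p in limma was under 0.05. Of the 11548 genes, 2656 (23%) were called, 421 higher (3.65%) and 2235 lower (19.4%), and 4450 had an unadjusted p under 0.05. Log2 changes of 1 or more were found for 144 of the rises, and changes of -1 or less for 501 of the falls. Of the 2656 called genes, 2637 had values that did not overlap between the arms, as did 44% of all tested genes.

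That imbalance depended on how the libraries were scaled. The median log2 change of all tested genes was -0.26 as deposited and -0.22 without BMP2+RSPO2 replicate 1, but -0.02 after quantile normalization and after protein-coding scaling and -0.03 after median-of-ratios scaling. Quantile normalization gave 800 rises (6.93%) and 826 falls (7.15%). Median-of-ratios scaling gave 848 (7.34%) and 849 (7.35%), and protein-coding scaling, which sets the summed FPKM of protein-coding genes equal, 786 (6.81%) and 908 (7.86%). At least 418 of the 421 rises were also called higher under each of the 3 scalings, whereas 825 to 908 of the 2235 falls were also called lower, and none was called higher. Without BMP2+RSPO2 replicate 1, 610 genes were higher (5.28%) and 2148 lower (18.6%), and 2218 of the 2656 calls remained. A gene is described below as called throughout when it was called in the same direction as deposited, without that replicate and under all 3 scalings. There were 378 such rises (3.27% of tested genes) and 661 such falls (5.72%), and a fall should be read against the median of -0.26. With the replicate number fitted as a block, 620 genes were higher (5.37%) and 3277 lower (28.4%), and in replicates 2 and 3 of each arm alone 856 (7.41%) and 3138 (27.2%). Leaving out 1 library at a time gave 1595 to 2758 calls, the fewest without Control replicate 1 and 1712 without Control replicate 3.

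**Figure D1:**
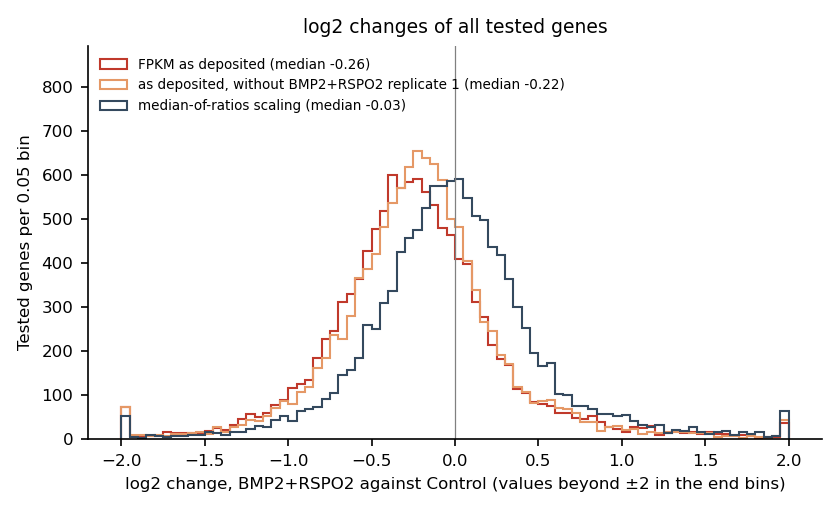
Number of tested genes (y axis, per bin of 0.05) by log2 change of BMP2+RSPO2 against Control (x axis, change in log2(FPKM + 1)) for 11548 genes, as deposited (red), as deposited without BMP2+RSPO2 replicate 1 (orange) and after median-of-ratios scaling (dark blue). The median lies at -0.26, -0.22 and -0.03 in these 3 versions, so the whole distribution moves with the scaling.

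Slc36a2, Cd200, Aspn and Acta2 were given as markers of this comparison, and the arms did not overlap in any of the 4. Slc36a2, a proton-coupled transporter of proline and glycine, was at 36.3, 69.05 and 62.4 FPKM with BMP2+RSPO2, against 1.95, 3.84 and 5.18 FPKM in Control (here and below, values are those of replicates 1, 2 and 3). Cd200, a membrane glycoprotein that restrains myeloid cells, was at 12.8, 25.7 and 23.1 FPKM with BMP2+RSPO2, against 0.38, 1.2 and 1.52 FPKM in Control. Every BMP2+RSPO2 library exceeded every Control library, and replicate 1 was the lowest of its arm for both genes. The log2 changes were 3.62 ± 0.34 (SE) for Slc36a2 (adjusted p = 0.000113) and 3.39 ± 0.29 for Cd200 (adjusted p = 6.83e-05). Aspn, which encodes asporin, a small leucine-rich proteoglycan that binds TGF-β, was at 26.3, 9.32 and 7.23 FPKM with BMP2+RSPO2, against 395, 301 and 362 FPKM in Control. Acta2, the smooth muscle α-actin, was at 275, 241 and 244 FPKM with BMP2+RSPO2, against 1087, 1241 and 1243 FPKM in Control. Both were lower in all 3 BMP2+RSPO2 libraries, with a log2 change of -4.73 ± 0.36 for Aspn (adjusted p = 3.51e-05) and of -2.23 ± 0.13 for Acta2 (adjusted p = 9.50e-06). All 4 were called throughout and in each of the 12 fits that leave out 1 library.

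Of the 14 largest rises, 13 are given here. They were led by Slc36a2 and Cd200 and included 2 collagens, osteocalcin and 2 membrane transporters, and in all but Bglap2 the arms did not overlap. These genes and the 14 largest falls were chosen by the size of their change, so their size is a description. Beside Slc36a2 and Cd200, they included Col11a2, the α2 chain of type XI collagen, at 61.6, 219 and 221 FPKM with BMP2+RSPO2, against 10.6, 20.8 and 30.6 FPKM in Control (log2 change 2.86 ± 0.56, adjusted p = 0.00616). Col24a1, a fibrillar collagen of developing bone, was at 20.6, 28.4 and 26.4 FPKM with BMP2+RSPO2, against 2.58, 4.69 and 5.37 FPKM in Control (log2 change 2.36 ± 0.23, adjusted p = 0.000164). Sgms2, which makes sphingomyelin at the plasma membrane and is mutated in an inherited human bone disorder, was at 138, 186 and 180.3 FPKM with BMP2+RSPO2, against 16.3, 24.3 and 31.4 FPKM in Control (log2 change 2.80 ± 0.27, adjusted p = 0.000136). The 3 genes did not overlap between the arms, and all 3 were lowest in replicate 1 of each arm. Adam12, a metalloprotease-disintegrin, was at 15.4, 18.9 and 16.6 FPKM with BMP2+RSPO2, against 1.22, 1.64 and 1.95 FPKM in Control and had the smallest adjusted p of these 13 (log2 change 2.79 ± 0.12, adjusted p = 1.52e-06). Cdo1, the cysteine dioxygenase that starts taurine synthesis, was at 13.1, 38.2 and 33.4 FPKM with BMP2+RSPO2, against 1.94, 2.66 and 4.45 FPKM in Control. Prex1, an activator of the GTPase Rac, was at 7.55, 13.1 and 12.5 FPKM with BMP2+RSPO2, against 0.41, 0.88 and 1.06 FPKM in Control. All 3 of these were higher in each BMP2+RSPO2 library than in any Control library, with log2 changes between 2.74 and 2.79.

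The other rises of that group covered Wnt inhibition, ion exchange and sulphation. Wif1, a secreted inhibitor that binds Wnt proteins, was at 89.6, 247 and 252 FPKM with BMP2+RSPO2, against 13.6, 38.05 and 49.2 FPKM in Control (log2 change 2.54 ± 0.57, adjusted p = 0.0112). Slc8a3, a sodium-calcium exchanger, was at 34.9, 43.8 and 40.8 FPKM with BMP2+RSPO2, against 3.51, 7.46 and 9.29 FPKM in Control. Gpr141, an orphan receptor, was at 4.44, 5.18 and 5.05 FPKM with BMP2+RSPO2, against 0, 0.25 and 0.1 FPKM in Control. Each of these separated the arms, and Gpr141 was close to 0 in Control. Chst11, which adds sulphate to chondroitin, was at 22.6, 42.95 and 40.1 FPKM with BMP2+RSPO2, against 4.21, 8.78 and 9.68 FPKM in Control. Bglap2, 1 of the mouse osteocalcin genes, was at 57.9, 1380.4 and 1297 FPKM with BMP2+RSPO2, against 68.3, 37.8 and 48.3 FPKM in Control, and it alone of these 13 overlapped between the arms. Its change of 3.21 ± 1.02 (adjusted p = 0.0439) became 4.71 without BMP2+RSPO2 replicate 1 (adjusted p = 0.000279), and that was the only 1 of the 12 leave-one-out fits in which it was called. Bglap2 has near-identical copies, which were not analysed here, so reads may have been split between them. The other 12 genes were called in all 12 of those fits, and all 13 throughout.

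The 14 largest falls included 2 small proteoglycans, a collagen, a fibrillin and 2 genes of the insulin-like growth factor system. Ogn, which encodes the proteoglycan osteoglycin, was at 38.5, 12.6 and 14.4 FPKM with BMP2+RSPO2, against 194, 156 and 164 FPKM in Control (log2 change -3.08 ± 0.32, adjusted p = 0.000248). Col3a1, the fibrillar collagen of soft connective tissue, was at 136, 106 and 108 FPKM with BMP2+RSPO2, against 739.9, 759 and 775 FPKM in Control (log2 change -2.70 ± 0.19, adjusted p = 2.85e-05). Fbn2, the microfibril protein fibrillin 2, was at 1.94, 4.46 and 4.02 FPKM with BMP2+RSPO2, against 25.7, 23.7 and 24.8 FPKM in Control (log2 change -2.58 ± 0.23, adjusted p = 9.74e-05). The arms were far apart for all 3, and the 3 Control values of Col3a1 and Fbn2 lay close together. Igfbp2, which binds and carries insulin-like growth factors, was at 5.97, 5.56 and 6.21 FPKM with BMP2+RSPO2, against 64.5, 63.4 and 62.2 FPKM in Control (log2 change -3.22 ± 0.15, adjusted p = 2.38e-06). Pappa2, a protease that cleaves such binding proteins, was at 11.6, 5.93 and 4.81 FPKM with BMP2+RSPO2, against 39.3, 49.4 and 49.8 FPKM in Control. Ptn, the heparin-binding growth factor pleiotrophin, was at 27.2, 30.3 and 31.2 FPKM with BMP2+RSPO2, against 234, 179 and 193 FPKM in Control. Every BMP2+RSPO2 value of these genes lay below every Control value.

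Several of the largest falls ended close to 0 FPKM. Tnnc2, the troponin C of fast skeletal muscle, was at 0, 0.96 and 0.74 FPKM with BMP2+RSPO2, against 43.5, 23.1 and 26.6 FPKM in Control. Gfra2, a co-receptor for the neurotrophic factor neurturin, was at 0.22, 0.16 and 0.31 FPKM with BMP2+RSPO2, against 23.2, 13.3 and 12.6 FPKM in Control. Apod, the lipocalin apolipoprotein D, was at 0.57, 0 and 0.08 FPKM with BMP2+RSPO2, against 17.2, 6.25 and 7.51 FPKM in Control. Their log2 changes of -4.36, -3.77 and -3.12 were called throughout. Itgbl1, a secreted protein related to β-integrins, was listed at 0 in all 3 BMP2+RSPO2 libraries and at 9.09, 4.47 and 4.78 FPKM in Control, so no fold is given (adjusted p = 3.51e-05). Ifi27l2a, an interferon-induced gene, was at 0, 1.0 and 1.29 FPKM with BMP2+RSPO2, against 7.78, 10.9 and 12.7 FPKM in Control. Ptprv, a receptor phosphatase made by osteoblasts, was at 0, 2.05 and 2.07 FPKM with BMP2+RSPO2, against 8.32, 12.2 and 13.8 FPKM in Control. In both, replicate 1 was listed at 0 and replicates 2 and 3 were above it. Enpp2, which encodes autotaxin, the enzyme that makes lysophosphatidic acid, was at 4.92, 3.53 and 3.34 FPKM with BMP2+RSPO2, against 51.3, 21.6 and 18.5 FPKM in Control, and Control replicate 1 was more than the other Control values together. All 14 falls were called throughout and in each of the 12 leave-one-out fits.

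**Figure D2:**
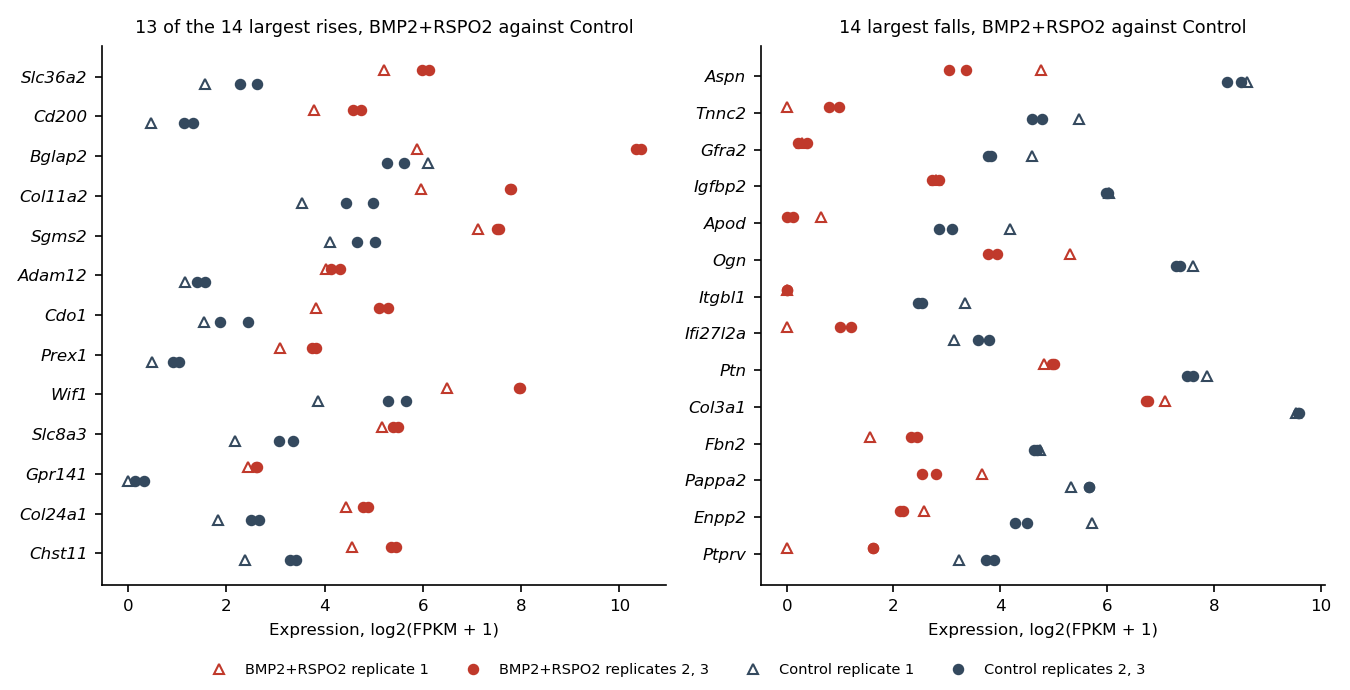
Expression as log2(FPKM + 1) (x axis) of 13 of the 14 largest called rises (left) and the 14 largest called falls (right), 1 symbol per library, BMP2+RSPO2 in red above Control in dark blue, with replicate 1 as an open triangle and replicates 2 and 3 as filled circles. The arms are apart in every row except Bglap2, where the red triangle of 57.9 FPKM lies among the Control values of 37.8 to 68.3 FPKM.

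Most called genes of the bone matrix and its mineralization rose with BMP2+RSPO2. Of 28 listed genes, 22 were tested; 10 were called higher and 2 lower, beside 3.65% higher and 19.4% lower among all tested genes, with a median log2 change of 1.27 (1.48 after median-of-ratios scaling). Without BMP2+RSPO2 replicate 1, 16 were higher and 2 lower, and in the blocked fit 16 and 3. The 7 called higher throughout were Ibsp, Alpl, Smpd3, Ifitm5, Lifr, Bmp8a and Bglap2. Ibsp, which encodes bone sialoprotein, a nucleator of mineral, was at 1972, 2885 and 2973 FPKM with BMP2+RSPO2, against 457, 683 and 793 FPKM in Control (log2 change 2.03 ± 0.26, adjusted p = 0.000741). Alpl, the phosphatase that frees phosphate for mineral, was at 24.7, 35.9 and 35.04 FPKM with BMP2+RSPO2, against 9.2, 8.64 and 8.3 FPKM in Control (log2 change 1.74 ± 0.19, adjusted p = 0.000322). The lowest BMP2+RSPO2 library was more than 2 times the highest Control library for both genes. Ifitm5, an osteoblast membrane protein mutated in human osteogenesis imperfecta type V, was at 332, 459.7 and 506 FPKM with BMP2+RSPO2, against 86.7, 121 and 156 FPKM in Control. Smpd3, a sphingomyelinase needed for normal mineralization in mice, was at 199, 285 and 273 FPKM with BMP2+RSPO2, against 43.1, 83.7 and 88.3 FPKM in Control. Bmp8a, a BMP ligand, was at 2.43, 2.15 and 2.0 FPKM with BMP2+RSPO2, against 0, 0.38 and 0.32 FPKM in Control. None of these 3 overlapped between the arms, and their log2 changes ran from 1.38 to 1.85. Lifr, the receptor of leukaemia inhibitory factor, had the smallest adjusted p of the list (3.67e-05) at 47.5, 37.1 and 34.9 FPKM with BMP2+RSPO2, against 12.7, 12.8 and 13.6 FPKM in Control (log2 change 1.53 ± 0.12).

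The promoter window of Ibsp is shown because this gene was among the most abundant transcripts that rose. The 300 bases (RefSeq, GRCm38.p6, chr5:104299037-104299336, plus strand, 250 before to 50 after the annotated start) are printed 5′ to 3′, with a reversed CCAAT box in capitals at position -54 from the start.
Ibsp: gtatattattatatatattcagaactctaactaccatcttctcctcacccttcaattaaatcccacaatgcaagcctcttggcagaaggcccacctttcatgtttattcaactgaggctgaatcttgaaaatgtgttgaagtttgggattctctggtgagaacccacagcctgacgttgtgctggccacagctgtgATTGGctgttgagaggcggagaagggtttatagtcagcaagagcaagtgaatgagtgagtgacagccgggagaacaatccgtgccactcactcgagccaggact
The letters CCAAT, searched on both strands, occur in 37.4% of all 32851 windows of that length, in 10 of 25 windows of bone matrix genes (40%) and in 37.6% of those of tested genes. They occur in fewer windows of the genes called higher throughout, 100 of 361 (27.7%), and in 41.6% of those of the genes called lower throughout. A match is a description of the letters.

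The major collagens of bone rose too, but their calls were less firm. Col1a1 and Col1a2, the 2 chains of type I collagen, were at 10637, 12137 and 12887 FPKM with BMP2+RSPO2, against 4015, 6454 and 6274 FPKM in Control for Col1a1 and at 3317, 6629.9 and 6742 FPKM with BMP2+RSPO2, against 2418, 3211 and 3283 FPKM in Control for Col1a2. Sparc, the collagen-binding glycoprotein osteonectin, was at 4501, 10146 and 10073 FPKM with BMP2+RSPO2, against 3145, 4402 and 4512 FPKM in Control. The arms did not overlap in Col1a1 and Col1a2 but did in Sparc, and in all 3 genes replicate 1 was the lowest of its arm in both arms. Their log2 changes were 1.12 ± 0.24, 0.85 ± 0.27 and 0.96 ± 0.29 (adjusted p = 0.00961, 0.0472 and 0.0387), and each was called under 2 of the 3 scalings. Col1a2 and Sparc were called in 1 of the 12 leave-one-out fits, the one without BMP2+RSPO2 replicate 1. The 3 genes together held 2.91%, 8.98% and 8.97% of the summed FPKM with BMP2+RSPO2, against 2.60%, 3.87% and 3.78% in Control.

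Dmp1, Spp1 and Ank, all on the bone matrix list, were lower in replicate 1 than in replicates 2 and 3 of each arm. Dmp1, an acidic matrix phosphoprotein of osteocytes, was at 21.4, 733 and 732 FPKM with BMP2+RSPO2, against 0.16, 27.1 and 34.8 FPKM in Control. Spp1, which encodes osteopontin, was at 215, 6051 and 6196 FPKM with BMP2+RSPO2, against 201, 1616 and 1402 FPKM in Control. Ank, a transporter that exports pyrophosphate precursors, was at 19.7, 145 and 137 FPKM with BMP2+RSPO2, against 14.2, 33.6 and 30.2 FPKM in Control. Replicate 1 was the lowest library of its arm in both arms for all 3 genes, and the arms overlapped because BMP2+RSPO2 replicate 1 lay below Control replicates 2 and 3. None was called (adjusted p = 0.121, 0.519 and 0.162). In the fit with a replicate block, Dmp1 (adjusted p = 0.000137) and Ank (0.00811) were called and Spp1 was not (0.0565). Without BMP2+RSPO2 replicate 1, Dmp1 had a log2 change of 6.12 (adjusted p = 0.0488) and Ank of 2.48 (0.0172). Of 10 tested genes of the osteocyte list, 3 were called, all higher and throughout, where 3.65% of all tested genes were called higher. Leaving out BMP2+RSPO2 replicate 1 gave 5 rises and 1 fall. Mepe, Sost and Fgf23, also on that list, were below the filter, at no more than 0.21 FPKM in these 6 libraries. Ackr3, a chemokine receptor, was at 2.42, 4.69 and 4.93 FPKM with BMP2+RSPO2, against 2.13, 0.73 and 1.5 FPKM in Control. Gja1, a gap junction protein, was at 66.8, 57.5 and 52.2 FPKM with BMP2+RSPO2, against 40.5, 29.1 and 26.1 FPKM in Control. Irx5, a transcription factor, was at 21.7, 39.2 and 40.03 FPKM with BMP2+RSPO2, against 18.4, 17.3 and 18.8 FPKM in Control, and none of the 3 overlapped between the arms. Of the 2 falls on the matrix list, Omd, which encodes the proteoglycan osteomodulin, was at 144, 72.3 and 63.9 FPKM with BMP2+RSPO2, against 224, 177 and 213 FPKM in Control and was called under none of the 3 scalings. Slc20a2, a phosphate transporter, was at 4.3, 4.99 and 4.81 FPKM with BMP2+RSPO2, against 8.37, 7.08 and 6.94 FPKM in Control and was called under 2 of them.

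**Figure D3:**
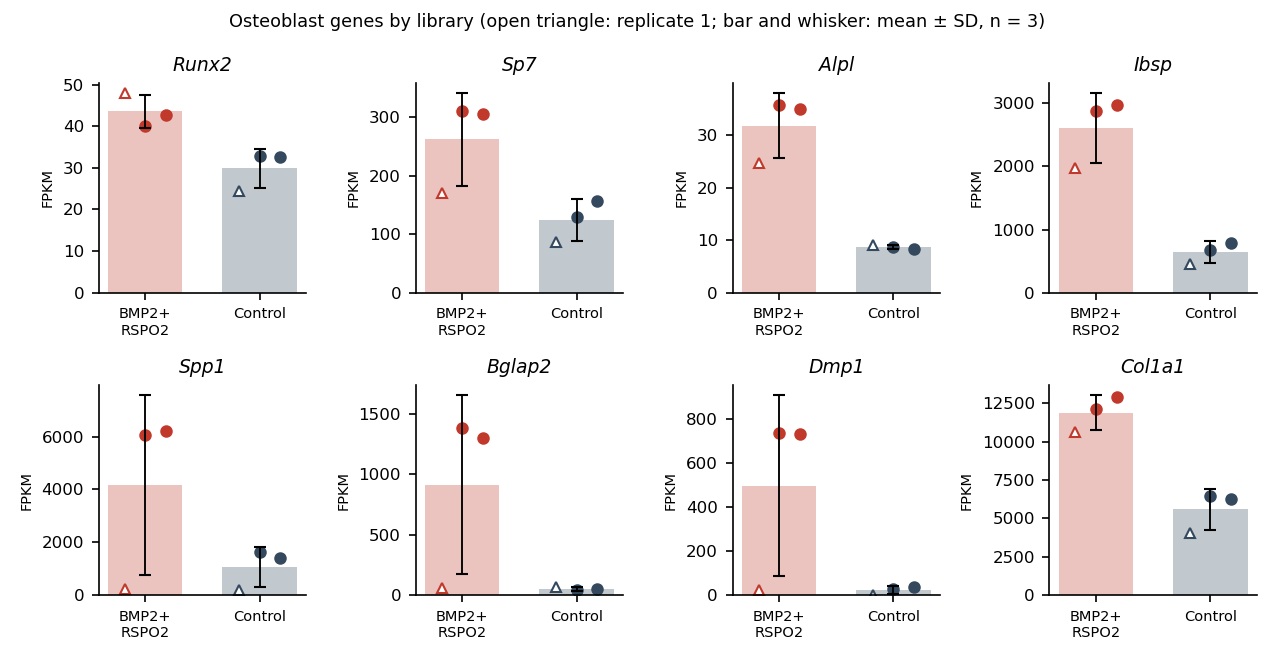
FPKM (y axes, from 0) of 8 osteoblast genes in the 3 BMP2+RSPO2 libraries (red, left) and the 3 Control libraries (dark blue, right); bars and whiskers are mean ± SD (n = 3), the open triangle is replicate 1. Alpl, Ibsp, Sp7, Runx2 and Col1a1 do not overlap between the arms, whereas Spp1, Bglap2 and Dmp1 are above all Control libraries only in BMP2+RSPO2 replicates 2 and 3.

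Among osteoblast transcription factors, Runx2, Sp7 and Dlx3 rose and Zfp521 and Msx1 fell. Of 19 tested genes of the list, 4 were called higher and 2 lower, where all tested genes gave 3.65% and 19.4%. The median log2 change of the list was 0.31 (0.45 after median-of-ratios scaling). Runx2, the factor that starts the lineage, was at 47.97, 40.1 and 42.6 FPKM with BMP2+RSPO2, against 24.5, 32.7 and 32.5 FPKM in Control. Sp7, which encodes osterix and acts after RUNX2, was at 170.1, 309.7 and 305 FPKM with BMP2+RSPO2, against 86.5, 129.8 and 157 FPKM in Control. Both were above Control in every BMP2+RSPO2 library. Sp7 rose (log2 change 1.06 ± 0.28, adjusted p = 0.0222) and was called throughout. Runx2 rose as deposited (log2 change 0.54 ± 0.15, adjusted p = 0.0265) and under all 3 scalings, but its adjusted p without BMP2+RSPO2 replicate 1 was 0.0629. Dlx3, a homeodomain factor of bone and teeth, was at 13.2, 18.8 and 16.2 FPKM with BMP2+RSPO2, against 3.55, 6.79 and 6.74 FPKM in Control (log2 change 1.38 ± 0.22, adjusted p = 0.00235) and was called throughout. Dlx5, a BMP-responsive homeodomain factor, was at 39.95, 40.05 and 40.1 FPKM with BMP2+RSPO2, against 18.7, 27.2 and 30.5 FPKM in Control. It was not called (adjusted p = 0.0608), but it was with the replicate block (0.0295) and under all 3 scalings. Zfp521, a factor that antagonizes RUNX2, was at 5.65, 2.95 and 2.94 FPKM with BMP2+RSPO2, against 14.6, 10.3 and 9.96 FPKM in Control and fell throughout (log2 change -1.41 ± 0.20, adjusted p = 0.00138). Msx1 was called lower (-0.43) but under none of the scalings.

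Feedback genes of BMP signalling moved in both directions. Of 20 tested BMP-SMAD targets, 8 were called higher and 5 lower, beside 3.65% and 19.4% of all tested genes. Called throughout were 6 and 3, beside 3.27% and 5.72%. The median of the targets was 0.53 (0.78 after median-of-ratios scaling). Id1, an inhibitor of basic helix-loop-helix factors and a direct SMAD target, was at 5.34, 3.2 and 3.56 FPKM with BMP2+RSPO2, against 1.62, 1.24 and 0.71 FPKM in Control (log2 change 1.20 ± 0.21, adjusted p = 0.00346). Smad6, an inhibitory SMAD that limits BMP signalling, was at 5.33, 8.01 and 7.68 FPKM with BMP2+RSPO2, against 3.2, 4.6 and 4.6 FPKM in Control (log2 change 0.64 ± 0.16, adjusted p = 0.0190). Hes1, a transcriptional repressor also known as a Notch target, was at 6.85, 7.56 and 9.98 FPKM with BMP2+RSPO2, against 1.16, 2.79 and 2.33 FPKM in Control (log2 change 1.59 ± 0.21, adjusted p = 0.00083). No value overlapped between the arms in these 3. The pseudoreceptor Bambi and the co-regulator Sbno2 also rose throughout, with log2 changes of 0.72 and 0.55. Smad7, the inhibitory SMAD of TGF-β signalling, and the factor Atoh8 rose as deposited (adjusted p = 0.0252 and 0.0387) but not without BMP2+RSPO2 replicate 1 (0.0617 and 0.0837).

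The promoter window of Smad6 is shown because it carries the palindrome GTCTAGAC, which SMAD proteins bind. It comes from RefSeq, GRCm38.p6, chr9:64022010-64022309, minus strand, and is printed 5′ to 3′ along the gene, with the palindrome in capitals at position -4 from the start.
Smad6: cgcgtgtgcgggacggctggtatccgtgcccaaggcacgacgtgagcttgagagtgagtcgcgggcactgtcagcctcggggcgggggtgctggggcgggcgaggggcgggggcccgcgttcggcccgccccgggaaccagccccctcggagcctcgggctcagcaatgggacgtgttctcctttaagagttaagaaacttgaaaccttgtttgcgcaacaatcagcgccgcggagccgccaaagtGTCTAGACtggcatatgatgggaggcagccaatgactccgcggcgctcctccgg
The palindrome reads the same on both strands and occurs in 70 of 32851 windows (0.213%). It occurs in 20 of 9935 windows of tested genes (0.201%) and in 2 of 361 windows of genes called higher throughout (0.554%). The 1 hit among 15 windows of BMP-SMAD targets (6.67%) is this Smad6 window, which was picked for carrying it. The match is a description of the letters and does not show that a factor binds there.

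Secreted antagonists and receptors of the TGF-β superfamily were among the falls. Grem1, which encodes the BMP antagonist gremlin, was at 7.38, 5.95 and 4.89 FPKM with BMP2+RSPO2, against 27.5, 17.6 and 16.03 FPKM in Control (log2 change -1.57 ± 0.23, adjusted p = 0.00149). Fst, the activin-binding protein follistatin, was at 26.7, 22.2 and 20.9 FPKM with BMP2+RSPO2, against 60.6, 91.3 and 82.99 FPKM in Control (log2 change -1.69 ± 0.20, adjusted p = 0.000445). Chrd, the BMP antagonist chordin, was at 1.33, 2.57 and 2.37 FPKM with BMP2+RSPO2, against 4.91, 3.83 and 4.19 FPKM in Control (log2 change -0.80 ± 0.19, adjusted p = 0.0135). All 3 were lower in every BMP2+RSPO2 library and were called throughout. Of 21 tested ligands and receptors, 3 were called higher and 6 lower, 3 and 3 of them throughout. The shares of all tested genes were 3.65% and 19.4%, and 3.27% and 5.72% throughout. The median of -0.26 of this list equalled that of all genes. Gdf6, a BMP family ligand, was at 0.42, 0.07 and 0.1 FPKM with BMP2+RSPO2, against 5.19, 5.2 and 5.02 FPKM in Control (log2 change -2.37 ± 0.21, adjusted p = 9.80e-05). Tgfbr2, the type II receptor of TGF-β, was at 17.5, 18.6 and 16.6 FPKM with BMP2+RSPO2, against 49.3, 37.9 and 33.8 FPKM in Control (log2 change -1.14 ± 0.13, adjusted p = 0.000419). Tgfb1, the ligand TGF-β1, was at 44.3, 60.9 and 58.03 FPKM with BMP2+RSPO2, against 16.6, 29.3 and 27.96 FPKM in Control (log2 change 1.14 ± 0.25, adjusted p = 0.0105). The ligand thus rose while its type II receptor fell, and the co-receptor Tgfbr3 also fell (-0.94, adjusted p = 0.00088). Bmp1, the protease that trims procollagen, and the activin subunit Inhbb rose with log2 changes of 0.85 and 0.58. The BMP2 receptor genes Bmpr1a and Bmpr2 were not called, at 18.6, 15.1 and 14.5 FPKM with BMP2+RSPO2, against 22.9, 17.9 and 18.8 FPKM in Control for Bmpr1a and at 10.2, 6.96 and 7.04 FPKM with BMP2+RSPO2, against 5.72, 6.22 and 6.23 FPKM in Control for Bmpr2. With the replicate block Bmpr1a was called (adjusted p = 0.0427) and Bmpr2 was not (0.125).

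Wnt targets and feedback genes were called in both directions. Of 20 tested, 5 were called higher and 4 lower, where 3.65% of all tested genes were called higher and 19.4% lower. The median was 0.05 (0.26 after median-of-ratios scaling). Without BMP2+RSPO2 replicate 1 the median was -0.06, with 6 called higher and 5 lower, so its sign depended on that library. The calls were 6 higher and 2 lower after median-of-ratios scaling, 5 and 1 after protein-coding scaling and 6 and 1 after quantile normalization. The 5 rises were called throughout and no fall was. Beside Wif1 and Bambi, these were Wisp1, Tcf7 and Rnf43. Wisp1, a secreted CCN family protein, was at 48.1, 74.5 and 69.7 FPKM with BMP2+RSPO2, against 23.2, 27.8 and 26.8 FPKM in Control (log2 change 1.25 ± 0.16, adjusted p = 0.000779). Tcf7, a DNA-binding partner of β-catenin, was at 114, 130.1 and 129.6 FPKM with BMP2+RSPO2, against 58.2, 77.3 and 78.8 FPKM in Control (log2 change 0.80 ± 0.16, adjusted p = 0.00633). Rnf43, the ubiquitin ligase that R-spondins oppose, was at 6.45, 4.15 and 4.34 FPKM with BMP2+RSPO2, against 2.89, 2.78 and 2.93 FPKM in Control (log2 change 0.61 ± 0.15, adjusted p = 0.0168). In each of the 3 the arms did not overlap. Axin2, the scaffold protein most often read as a Wnt target, was at 4.89, 4.37 and 4.34 FPKM with BMP2+RSPO2, against 5.32, 3.72 and 3.47 FPKM in Control and was not called (adjusted p = 0.756). Lef1, a partner of β-catenin, was at 3.34, 1.69 and 1.89 FPKM with BMP2+RSPO2, against 1.88, 1.9 and 1.78 FPKM in Control, and BMP2+RSPO2 replicate 1 alone was high (log2 change 0.18, and -0.03 without it). Znrf3, the partner ligase of RNF43, was at 3.84, 2.28 and 1.56 FPKM with BMP2+RSPO2, against 2.17, 1.63 and 1.68 FPKM in Control. Notum, a secreted Wnt inactivator, was at 7.86, 15.7 and 16.1 FPKM with BMP2+RSPO2, against 8.83, 9.05 and 7.72 FPKM in Control. Neither was called (adjusted p = 0.316 and 0.207), although Notum was called higher without BMP2+RSPO2 replicate 1 (0.0375). The arms overlapped in Axin2, Lef1 and Znrf3, and in Notum through replicate 1. Nkd2, a feedback inhibitor, was at 0.3, 0.39 and 0.23 FPKM with BMP2+RSPO2, against 1.8, 0.98 and 1.01 FPKM in Control and fell (log2 change -0.78 ± 0.17, adjusted p = 0.00888), a call kept under 2 of the 3 scalings.

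Among Wnt ligands, receptors and secreted antagonists, the median log2 change was -0.28, beside -0.26 for all tested genes, and -0.01 after median-of-ratios scaling, beside -0.03. Of 26 tested, 1 was called higher and 9 lower as deposited, and 4 and 7 without BMP2+RSPO2 replicate 1. After median-of-ratios scaling 2 were called higher and 4 lower, and 1 and 4 throughout. Sfrp2, a secreted Wnt-binding protein, was at 17.3, 14.4 and 13.8 FPKM with BMP2+RSPO2, against 66, 61.7 and 55.95 FPKM in Control (log2 change -1.95 ± 0.14, adjusted p = 2.85e-05). Fzd2, a Wnt receptor, was at 5.85, 7.52 and 6.99 FPKM with BMP2+RSPO2, against 20.8, 15.3 and 15.2 FPKM in Control (log2 change -1.21 ± 0.14, adjusted p = 0.000408). Ror1, a co-receptor of non-canonical Wnts, was at 1.85, 0.79 and 0.73 FPKM with BMP2+RSPO2, against 3.88, 2.85 and 2.89 FPKM in Control (log2 change -1.02 ± 0.19, adjusted p = 0.00541). Wnt7b, a ligand, was at 0, 0.42 and 0.58 FPKM with BMP2+RSPO2, against 2.96, 1.77 and 2.0 FPKM in Control (log2 change -1.29 ± 0.19, adjusted p = 0.00154). These 4 fell throughout, and no library of 1 arm reached the other. Lrp4, a receptor of the Wnt antagonist sclerostin, rose throughout at 28.8, 28.8 and 27.4 FPKM with BMP2+RSPO2, against 21.8, 18.4 and 17.2 FPKM in Control (log2 change 0.55 ± 0.12, adjusted p = 0.0119). The R-spondin receptor gene Lgr4 rose as well, at 6.29, 6.67 and 6.8 FPKM with BMP2+RSPO2, against 3.32, 4.24 and 4.35 FPKM in Control (log2 change 0.62 ± 0.13, adjusted p = 0.00743). The endogenous Rspo2 transcript was at 0, 0.23 and 0.04 FPKM with BMP2+RSPO2, against 1.71, 2.47 and 2.08 FPKM in Control and fell throughout (log2 change -1.50 ± 0.23, adjusted p = 0.00184), a reading that does not measure the added protein.

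The collagens split into 2 groups. Of 21 tested, 5 were called higher and 11 lower, beside 3.65% and 19.4% of all tested genes. Called throughout were 3 and 8, beside 3.27% and 5.72%. The median of the collagens was -1.12 (-0.85 after median-of-ratios scaling). The rises were Col1a1, Col1a2, Col11a2, Col24a1 and Col15a1, a collagen of basement membrane zones at 20.5, 26.97 and 27.9 FPKM with BMP2+RSPO2, against 9.03, 18.5 and 12.4 FPKM in Control. Col12a1, which decorates collagen fibrils, was at 46.8, 23.1 and 18.9 FPKM with BMP2+RSPO2, against 153, 131 and 131 FPKM in Control (log2 change -2.29 ± 0.28, adjusted p = 0.000539). Col6a1, Col6a2 and Col6a3, the chains of the microfibrillar type VI collagen, fell together, with log2 changes of -1.31, -1.30 and -1.03. Col6a3 was at 119, 122 and 114 FPKM with BMP2+RSPO2, against 256, 246 and 226 FPKM in Control. Col16a1, a fibril-associated collagen, was at 10.01, 15.3 and 15.5 FPKM with BMP2+RSPO2, against 50.0, 42.1 and 49.8 FPKM in Control (log2 change -1.74 ± 0.22, adjusted p = 0.000688). With Col3a1, Col8a1 and Col27a1 these made up the falls called throughout. Col5a1, which nucleates type I fibrils, was at 267, 327 and 323 FPKM with BMP2+RSPO2, against 226, 305 and 314 FPKM in Control and was not called (adjusted p = 0.651).

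Most small leucine-rich proteoglycans fell as deposited, and elastic fibre genes were called in both directions. Of 9 tested small leucine-rich proteoglycans, 7 were called lower, 5 of them throughout and under each of the 3 scalings, and the median was -1.50 (-1.36 after median-of-ratios scaling). Beside Aspn and Ogn, Fmod, which encodes fibromodulin, was at 286, 262 and 269.9 FPKM with BMP2+RSPO2, against 646, 733 and 746 FPKM in Control (log2 change -1.37 ± 0.18, adjusted p = 0.000745). Podn and Ecm2, matrix proteins of the same family, were at 0.72, 0.8 and 0.6 FPKM with BMP2+RSPO2, against 3.84, 4.71 and 3.55 FPKM in Control for Podn and at 0.4, 0.72 and 0.75 FPKM with BMP2+RSPO2, against 3.62, 3.96 and 3.2 FPKM in Control for Ecm2. None of these overlapped between the arms. Lum, which encodes lumican, was at 64.5, 19.1 and 15.4 FPKM with BMP2+RSPO2, against 420.5, 76.3 and 81.6 FPKM in Control, with replicate 1 the highest of each arm. It was not called (adjusted p = 0.0649), but it was with the replicate block (8.72e-05) and without BMP2+RSPO2 replicate 1 (0.0351). Of 16 tested elastic fibre and microfibril genes, 1 was called higher and 8 lower, 1 and 5 of them throughout. Under each of the 3 scalings 5 were called lower, and the median was -0.60 (-0.33 after median-of-ratios scaling). The shares of all tested genes were 3.65% higher and 19.4% lower as deposited, and 3.27% and 5.72% throughout. Fbn1, which encodes fibrillin 1, was at 1.17, 0.75 and 0.68 FPKM with BMP2+RSPO2, against 10.5, 9.18 and 7.66 FPKM in Control (log2 change -2.44 ± 0.14, adjusted p = 8.28e-06). Fbln5, an elastin-binding fibulin, was at 1.82, 3.22 and 2.87 FPKM with BMP2+RSPO2, against 15.7, 13.2 and 11.7 FPKM in Control (log2 change -2.01 ± 0.16, adjusted p = 4.41e-05). Mfap5, a microfibril glycoprotein, was at 3.67, 3.12 and 2.59 FPKM with BMP2+RSPO2, against 12.02, 19.3 and 18.6 FPKM in Control (log2 change -2.08 ± 0.25, adjusted p = 0.000498). The arms lay apart in all 3. Mfap4, another microfibril protein, was listed at 0 in every BMP2+RSPO2 library and at 2.08, 1.51 and 1.08 FPKM in Control (adjusted p = 0.00148). Lox, which crosslinks collagen and elastin, was the 1 that rose, at 278, 315 and 304 FPKM with BMP2+RSPO2, against 149, 196 and 217 FPKM in Control (log2 change 0.69 ± 0.18, adjusted p = 0.0210).

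Matricellular genes, which encode secreted regulators of cell and matrix contact, moved both ways. Of 18 tested, 4 were called higher and 8 lower, 3 and 7 of them throughout. Thbs1, which encodes thrombospondin 1, was at 184, 189 and 175 FPKM with BMP2+RSPO2, against 62.4, 95.9 and 89.2 FPKM in Control (log2 change 1.16 ± 0.27, adjusted p = 0.0121). Thbs2, its close relative, was at 36.5, 22.6 and 20.01 FPKM with BMP2+RSPO2, against 113, 69.5 and 67.2 FPKM in Control (log2 change -1.63 ± 0.24, adjusted p = 0.00146). Within the CCN family, Wisp1 and Ctgf rose, with Ctgf at 15.9, 34.3 and 34.2 FPKM with BMP2+RSPO2, against 6.0, 11.7 and 11.3 FPKM in Control, while Wisp2 fell, at 1.37, 2.29 and 1.91 FPKM with BMP2+RSPO2, against 22.01, 14.97 and 7.99 FPKM in Control, as did Nov, at 5.73, 3.07 and 3.57 FPKM with BMP2+RSPO2, against 49.2, 19.8 and 15.5 FPKM in Control. Postn, which encodes periostin, was at 88.9, 76.05 and 73.2 FPKM with BMP2+RSPO2, against 175, 181 and 183 FPKM in Control (log2 change -1.17 ± 0.10, adjusted p = 9.25e-05). All of these were apart between the arms. Among 29 tested proteases and inhibitors, 4 were called higher and 4 lower, beside 3.65% higher and 19.4% lower among all tested genes. Htra1, a secreted serine protease, fell to 12.3, 22.2 and 22.5 FPKM with BMP2+RSPO2, against 92.2, 81.4 and 76.7 FPKM in Control (log2 change -2.12 ± 0.22, adjusted p = 0.000248), and Adamts12 rose (log2 change 1.22 ± 0.22, adjusted p = 0.00402). Of 8 tested cartilage genes, 3 were called, all higher and throughout. Col2a1, the collagen of cartilage, was at 7.59, 16.1 and 15.9 FPKM with BMP2+RSPO2, against 1.86, 6.4 and 4.63 FPKM in Control (log2 change 1.46 ± 0.41, adjusted p = 0.0282). Col10a1, the collagen of hypertrophic chondrocytes, was at 0.2, 4.71 and 4.45 FPKM with BMP2+RSPO2, against 0.05, 0.02 and 0 FPKM in Control, where BMP2+RSPO2 replicate 1 was close to Control (log2 change 1.71 ± 0.50, adjusted p = 0.0319). The third was Ptch1. The defining cartilage genes Acan and Col9a1 were listed at 0 in all 6 libraries.

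Contractile genes of smooth muscle, several of them abundant, mostly fell as deposited. Of 15 tested, 12 were called lower as deposited and without BMP2+RSPO2 replicate 1, 8 after median-of-ratios scaling and 7 throughout. The median of the list was -1.15 (-0.97 after that scaling). Among all tested genes, 19.4%, 18.6%, 7.35% and 5.72% were called lower in that order. With the replicate block 13 of the 15 were called lower and 1 higher. The 1 was Des, which encodes the intermediate filament protein desmin (log2 change 0.53, adjusted p = 0.203, and 0.00622 with the block). Des was also called higher in replicates 2 and 3 of each arm only. The summed level of the list was 1008, 1001 and 993 FPKM with BMP2+RSPO2, against 2558, 2866 and 2949 FPKM in Control. Beside Acta2, Tagln, the actin-binding protein transgelin, was at 42.5, 49.4 and 52.1 FPKM with BMP2+RSPO2, against 158, 303 and 297 FPKM in Control (log2 change -2.32 ± 0.31, adjusted p = 0.000999). Myl9, the regulatory myosin light chain, was at 71.9, 62.2 and 60.6 FPKM with BMP2+RSPO2, against 293, 229.5 and 230.4 FPKM in Control (log2 change -1.93 ± 0.12, adjusted p = 1.94e-05). Itga8, an integrin chain, was at 0.65, 0.37 and 0.34 FPKM with BMP2+RSPO2, against 8.36, 5.38 and 5.23 FPKM in Control (log2 change -2.31 ± 0.20, adjusted p = 7.07e-05). Tpm2, a tropomyosin, was at 12.3, 16.5 and 18.3 FPKM with BMP2+RSPO2, against 40.9, 35.3 and 42.5 FPKM in Control (log2 change -1.29 ± 0.14, adjusted p = 0.000342). The arms were separate for each of these, and Lmod1 and Actg2 complete the falls called throughout. Myocd, the co-activator that defines smooth muscle, was listed at 0 in all 6 libraries. In such bulk libraries, fewer cells of a kind and less RNA per cell cannot be told apart.

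The promoter window of Acta2 is shown because this gene is a marker of the comparison and its window holds 2 elements close to the CArG box, the site of serum response factor. It comes from RefSeq, GRCm38.p6, chr19:34255324-34255623, minus strand, and is printed 5′ to 3′ along the gene, with both elements in capitals at positions -84 and -34 from the start.
Acta2: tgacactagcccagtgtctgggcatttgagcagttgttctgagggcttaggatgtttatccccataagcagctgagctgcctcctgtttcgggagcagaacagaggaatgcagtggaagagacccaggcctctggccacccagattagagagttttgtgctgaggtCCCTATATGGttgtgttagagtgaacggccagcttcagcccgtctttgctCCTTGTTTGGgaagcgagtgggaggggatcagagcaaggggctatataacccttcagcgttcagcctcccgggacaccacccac
Such an element (CC, a stretch of A or T in which 1 base may differ, then GG, either strand) occurs in 9.98% of all windows, in 3 of 14 windows of smooth muscle genes (21.4%) and in 8.99% of those of the genes called lower throughout. It also occurs in 4 of 21 windows of Wnt targets (19%), in 4 of 25 of bone matrix genes (16%) and in 9.7% of those of the genes called higher throughout.

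Markers of other cell types were mostly low, and some fell. Tested adipocyte genes were called lower in 4 of 6 cases, among them Cebpa at 0.98, 0.86 and 1.36 FPKM with BMP2+RSPO2, against 2.57, 4.22 and 4.28 FPKM in Control; the summed level of the list was 24.4 to 30.3 FPKM with BMP2+RSPO2 and 50.0 to 51.9 FPKM in Control, and Adipoq and Plin1 were listed at 0. Of 8 tested tendon genes, 4 were called lower, and the list summed to 474 to 485 FPKM with BMP2+RSPO2, against 849 to 1037 FPKM in Control. Fmod, described above among the proteoglycans, is on this list and made up most of that sum in every library of both arms. Of 4 tested striated muscle markers, 2 were called lower, and Cryab was called higher after median-of-ratios scaling (adjusted p = 0.0378); the list summed to 157 to 164 FPKM with BMP2+RSPO2 and to 161 to 169 FPKM in Control, and Myod1, Myog and Ckm were listed at 0. Macrophage and osteoclast markers summed to 117 to 168 FPKM with BMP2+RSPO2 and to 163 to 222 FPKM in Control, with Ptprc and Adgre1 listed at 0; limma called 0 of 3 tested, and 1 had an unadjusted p under 0.05, Cd68, which was called higher without BMP2+RSPO2 replicate 1 (adjusted p = 0.000981). Flt1, the 1 tested endothelial marker, fell. The list members below the filter summed to 10.1, 2.04 and 4.12 FPKM with BMP2+RSPO2, against 0.25, 0.73 and 0.47 FPKM in Control, so without Flt1 the summed list was higher in every BMP2+RSPO2 library. Different genes made up these sums. Vwf was at 0.14, 2.02 and 1.97 FPKM with BMP2+RSPO2, against 0.16, 0.37 and 0.24 FPKM in Control. Cdh5 was at 3.89, 0 and 0.66 FPKM with BMP2+RSPO2, against 0, 0.12 and 0 FPKM in Control. With Flt1, endothelial markers summed to 3.00 to 11.6 FPKM with BMP2+RSPO2 and to 3.53 to 5.85 FPKM in Control. Epithelial markers summed to 2.45 to 2.83 FPKM with BMP2+RSPO2 and to 0.49 to 0.66 FPKM in Control, and Epcam was listed at 0. Here too the genes differed by library. Krt14 was at 0, 2.26 and 2.24 FPKM with BMP2+RSPO2, against 0, 0.04 and 0.08 FPKM in Control. Krt18 was at 2.09, 0.13 and 0.1 FPKM, against 0.27, 0.22 and 0.26 FPKM. Krt8 was lower with BMP2+RSPO2, at 0, 0.14 and 0 FPKM, against 0.22, 0.16 and 0.24 FPKM. The part of these levels in the results above was not tested.

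Genes of the insulin-like growth factor system called as deposited all fell; after median-of-ratios scaling the insulin receptor gene Insr was called higher (adjusted p = 0.0349). Of 14 tested, 6 were called lower, all 6 throughout, with a median of -0.39 (-0.18 after median-of-ratios scaling). Leaving out BMP2+RSPO2 replicate 1 gave 8 falls and a median of -0.78. Igf1, a growth factor for osteoblasts, was at 0.21, 0.08 and 0.07 FPKM with BMP2+RSPO2, against 5.07, 2.54 and 2.36 FPKM in Control (log2 change -1.90 ± 0.24, adjusted p = 0.000713). Igfbp4, a binding protein, was at 8.97, 7.95 and 7.74 FPKM with BMP2+RSPO2, against 46.8, 24.3 and 45.9 FPKM in Control (log2 change -2.06 ± 0.37, adjusted p = 0.00378). Igfbp7 was at 29.9, 25.4 and 28.6 FPKM with BMP2+RSPO2, against 63.2, 53.9 and 56.2 FPKM in Control. Igf2, Igfbp2 and Pappa2 were the others, and none of the 6 overlapped between the arms. Among 26 tested genes of the FGF, PDGF, VEGF and EGF families, 3 were called higher and 6 lower, and 5 and 7 without that replicate. Over all tested genes the shares were 3.65% and 19.4% as deposited, and 5.28% and 18.6% without it. The receptor Pdgfra rose to 7.96, 12.8 and 12.2 FPKM with BMP2+RSPO2, against 6.23, 5.58 and 6.36 FPKM in Control (log2 change 0.74 ± 0.15, adjusted p = 0.00799), and its ligand Pdgfa also rose (log2 change 0.79). The related receptor Pdgfrb fell to 19.6, 18.9 and 16.4 FPKM with BMP2+RSPO2, against 33.7, 41.3 and 34.7 FPKM in Control (log2 change -0.96 ± 0.15, adjusted p = 0.00240). The 2 PDGF receptors moved in opposite directions, both throughout.

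Hedgehog and Notch genes moved both ways. Of 14 tested, 4 were called higher and 6 lower, beside 3.65% and 19.4% of all tested genes. Called throughout were 4 and 2, beside 3.27% and 5.72%. Ptch1, the Hedgehog receptor and target, was at 18.6, 13.1 and 11.7 FPKM with BMP2+RSPO2, against 6.21, 6.05 and 5.72 FPKM in Control (log2 change 1.12 ± 0.17, adjusted p = 0.00180). Gli1, a factor that Hedgehog induces, was at 2.25, 2.47 and 2.52 FPKM with BMP2+RSPO2, against 0.99, 0.88 and 1.36 FPKM in Control (log2 change 0.72 ± 0.18, adjusted p = 0.0161). Boc, a co-receptor, was at 9.69, 10.9 and 11.4 FPKM with BMP2+RSPO2, against 4.95, 6.35 and 6.29 FPKM in Control (log2 change 0.77 ± 0.14, adjusted p = 0.00480). In all 3, the lowest BMP2+RSPO2 library was above the highest Control library. Gas1, another Hedgehog co-receptor, went the other way at 4.96, 5.44 and 4.77 FPKM with BMP2+RSPO2, against 14.1, 14.4 and 12.5 FPKM in Control (log2 change -1.28 ± 0.11, adjusted p = 8.50e-05), and Lfng, which modifies Notch receptors, fell too (log2 change -0.88). Notch1 fell as deposited (-0.90) but under none of the scalings.

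Adhesion genes were divided. Of 29 tested, 8 were called higher and 9 lower, 7 and 7 of them throughout. Cdh2, which encodes N-cadherin, was at 46.5, 36.01 and 37.3 FPKM with BMP2+RSPO2, against 14.9, 18.8 and 18.3 FPKM in Control (log2 change 1.16 ± 0.15, adjusted p = 0.000705). Itga11, a collagen-binding integrin chain, was at 35.3, 49.3 and 42.8 FPKM with BMP2+RSPO2, against 22.5, 27.5 and 25.5 FPKM in Control (log2 change 0.72 ± 0.13, adjusted p = 0.00384). Vcam1, an adhesion molecule for leukocytes, was at 2.86, 1.46 and 1.59 FPKM with BMP2+RSPO2, against 13.6, 9.05 and 8.44 FPKM in Control (log2 change -1.94 ± 0.22, adjusted p = 0.000389). The arms did not overlap in these 3. Ddr2, a collagen receptor, was at 62.7, 49.5 and 46.95 FPKM with BMP2+RSPO2, against 11.2, 45.5 and 11.9 FPKM in Control, where Control replicate 2 was far above the other Control libraries, and its adjusted p of 0.0303 became 0.0755 without BMP2+RSPO2 replicate 1. The heparan sulphate proteoglycans Gpc1 and Sdc3 rose (0.75 and 0.55), whereas Sdc1 and Sdc2 fell (-0.86 and -0.82). Of 27 tested axon guidance genes, 2 were called higher and 6 lower, and 5 and 7 with the replicate block. Leaving out BMP2+RSPO2 replicate 1 gave 5 rises and 9 falls. As deposited, 3.65% of all tested genes were called higher and 19.4% lower. These shares were 5.37% and 28.4% with the block, and 5.28% and 18.6% without that library. Sema3b, a secreted semaphorin, was at 27.1, 41.6 and 43.2 FPKM with BMP2+RSPO2, against 13.03, 18.99 and 20.7 FPKM in Control and rose. Sema3c, another, was at 0.71, 0.19 and 0.21 FPKM with BMP2+RSPO2, against 4.8, 3.13 and 3.11 FPKM in Control and fell, both without overlap.

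**Figure D4:**
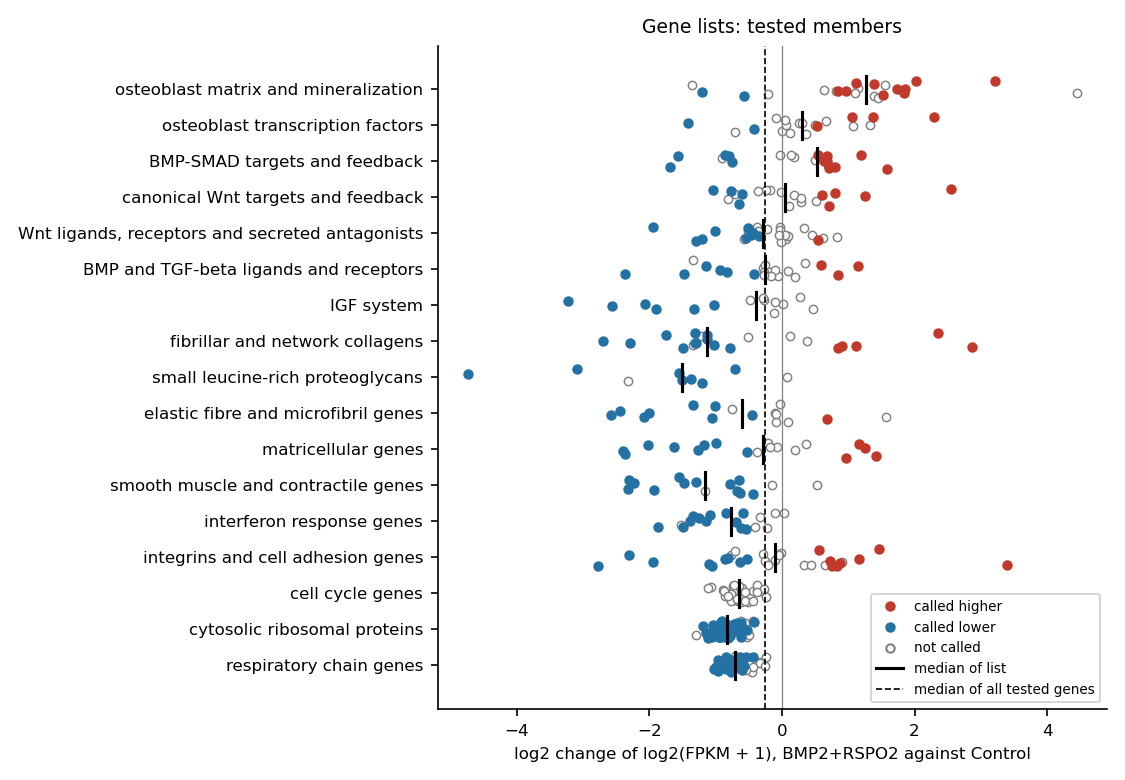
Log2 change of BMP2+RSPO2 against Control (x axis) for the tested members of 17 gene lists (rows), with members called higher in red, called lower in blue and not called as open circles; the short bar is the median of the list and the dashed line the median of all tested genes, -0.26. Bone matrix genes have their median at 1.27, small leucine-rich proteoglycans at -1.50 and smooth muscle genes at -1.15; after median-of-ratios scaling these become 1.48, -1.36 and -0.97.

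Most interferon response genes fell as deposited. Of 18 tested, 12 were called lower as deposited and without BMP2+RSPO2 replicate 1, 8 after median-of-ratios scaling and 7 throughout. The median of the list was -0.77 (-0.58 after that scaling). Among all tested genes, 19.4%, 18.6%, 7.35% and 5.72% were called lower in that order. Psmb8, an immunoproteasome subunit, was at 0.84, 2.05 and 2.92 FPKM with BMP2+RSPO2, against 10.6, 7.9 and 9.53 FPKM in Control (log2 change -1.88 ± 0.25, adjusted p = 0.00101). Irf1, a transcription factor of the response, was at 3.59, 4.66 and 4.3 FPKM with BMP2+RSPO2, against 13.6, 9.41 and 8.88 FPKM in Control (log2 change -1.15 ± 0.18, adjusted p = 0.00193). Bst2, the antiviral tether, was at 0.66, 2.45 and 1.69 FPKM with BMP2+RSPO2, against 5.52, 6.66 and 5.92 FPKM in Control (log2 change -1.50 ± 0.25, adjusted p = 0.00290). The arms were apart in each. Ptgfr, the receptor of prostaglandin F, was at 7.08, 4.08 and 4.29 FPKM with BMP2+RSPO2, against 20.6, 20.02 and 24.8 FPKM in Control (log2 change -1.92 ± 0.19, adjusted p = 0.000164). Il1rl1, the receptor of interleukin 33, was at 0, 0.5 and 0.61 FPKM with BMP2+RSPO2, against 4.49, 4.58 and 2.52 FPKM in Control (log2 change -1.83 ± 0.29, adjusted p = 0.00244). Of 9 tested regulators of osteoclasts made by osteoblasts, 1 was called, the chemokine Ccl7. It was low in both arms (0, 0.09 and 0 FPKM with BMP2+RSPO2, against 1.06, 0.98 and 0.54 FPKM in Control). Leaving out BMP2+RSPO2 replicate 1 gave 2 falls in this list. Tnfsf11, also on the list, was listed at 0 in all 6 libraries and was not tested. Tnfrsf11b, which encodes osteoprotegerin, the decoy receptor that blocks osteoclast formation, was at 189.5, 218 and 219.9 FPKM with BMP2+RSPO2, against 136, 165 and 169 FPKM in Control; it was not called as deposited (adjusted p = 0.118) but was called higher under all 3 scalings.

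Lipid and transcription factor genes gave further single changes. In the lysophospholipid and sphingolipid list, 2 of 16 tested genes were called higher and 4 lower, all throughout. The lipid phosphatases Plpp1 and Plpp3, which break down lysophosphatidic acid, fell, as did Enpp2, with log2 changes of -1.23 and -1.24. Klf4, a zinc finger factor, was at 125, 155 and 148 FPKM with BMP2+RSPO2, against 37.4, 69.3 and 67.1 FPKM in Control (log2 change 1.33 ± 0.28, adjusted p = 0.00874). Jun, a subunit of AP-1, was at 3.94, 4.02 and 3.84 FPKM with BMP2+RSPO2, against 11.1, 12.04 and 9.52 FPKM in Control (log2 change -1.26 ± 0.12, adjusted p = 0.000142). Both lay apart between the arms. Of 21 AP-1, EGR and KLF factors tested, 3 were called higher and 2 lower, and 7 and 3 with the replicate block. Leaving out BMP2+RSPO2 replicate 1 gave 6 rises and 2 falls. Of 18 tested amino acid genes, 2 were called higher (Slc36a2 and Cdo1) and 2 lower, and 4 and 3 with the block. The shares of all tested genes were 3.65% higher and 19.4% lower as deposited, and 5.37% and 28.4% with the block.

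The number of calls in housekeeping groups depended on the scaling, and in some on BMP2+RSPO2 replicate 1. Cytosolic ribosomal protein genes were called lower in 57 of 66 cases as deposited, in 3 after median-of-ratios scaling, in 3 after quantile normalization and in 35 after protein-coding scaling. Their median log2 change was -0.82 as deposited, beside -0.26 for all tested genes, and -0.54 after median-of-ratios scaling, beside -0.03. Their median level was 284, 506 and 547 FPKM with BMP2+RSPO2, against 668, 760.4 and 789 FPKM in Control. Respiratory chain genes were called lower in 28 of 38 cases, 14 after that scaling and 10 throughout, with a median of -0.71 (-0.44 after that scaling). Hypoxia and glycolysis genes were called lower in 9 of 18 cases, 3 without BMP2+RSPO2 replicate 1, 1 after that scaling and 13 with the replicate block. The median of this list was -1.11 as deposited, -0.99 without that library and -0.91 after median-of-ratios scaling. Cholesterol and fatty acid synthesis genes had 13 falls and 2 rises among 27, of which 2 and 2 were called after that scaling, with medians of -0.42 and -0.16. Without BMP2+RSPO2 replicate 1 this list had 19 falls and 2 rises, with a median of -0.60. The desaturase Scd1, which rose, was at 63.1, 37.1 and 40.2 FPKM with BMP2+RSPO2, against 27.3, 29.6 and 27.2 FPKM in Control. Of 32 genes of endoplasmic reticulum folding, 1 was called higher and 5 lower, near the shares of all tested genes (3.65% and 19.4%). Leaving out BMP2+RSPO2 replicate 1 gave 3 rises and 6 falls there. Of 25 genes of the ATF4 programme, 1 was called lower, and 3 with the block. Among all tested genes 19.4% were called lower, and 28.4% with the block.

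Cell cycle genes were high in replicate 1 of both arms. Their median was 19.2, 7.58 and 7.42 FPKM with BMP2+RSPO2, against 40.2, 9.72 and 10.6 FPKM in Control. None of the 35 tested was called by limma over all libraries, and 0 had an unadjusted p under 0.05. With the replicate block 19 were called lower, and with replicates 2 and 3 of each arm only 30 were. The shares of all tested genes called lower in these 2 fits were 28.4% and 27.2%. For each replicate number the cell cycle median of the BMP2+RSPO2 library was the lower one. Histone genes had 1 call among 21, the linker histone Hist1h1c at 83.5, 40.8 and 47.9 FPKM with BMP2+RSPO2, against 15.4, 9.88 and 9.07 FPKM in Control (log2 change 2.19 ± 0.27, adjusted p = 0.000558), whose mRNA is also found polyadenylated.

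Calls of the genes named above were also repeated with each of the 12 libraries left out in turn. Of 185 called genes followed this way, 147 were called in all 12 fits, and 33 of the others lost the call without Control replicate 1. Col1a2, Sparc, Bglap2 and Inhbb were called in 1 of the 12 fits, Bambi in 4, Atoh8 in 6, and Col10a1, Sbno2 and Ddr2 in 7. Irx5, Col2a1 and Col15a1 were called in 8 fits, and Runx2, Sp7, Smad6, Smad7, Msx1, Ackr3, Ctgf and Pdgfa in 9. Gja1, Lox, Gli1, Ccl7 and Scd1 were called in 10 fits and Rnf43, Chrd, Omd and Sema3b in 11. The highest adjusted p in these fits was 0.0823 for Sp7, 0.0979 for Runx2 and 0.07 for Smad6, in each case without Control replicate 1, and 0.157 for Col1a2. Every one of the 185 genes kept its direction in all of the alternatives tried.

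More genes were called between the combination and RSPO2 alone than between the combination and BMP2 alone. These comparisons share the BMP2+RSPO2 libraries with the one above, and only values are set side by side. Between BMP2+RSPO2 and BMP2, 506 genes were called (4.38%), 74 higher (0.641%) and 432 lower (3.74%), and 1710 in the fit with a replicate block (205 higher, 1.78%, and 1505 lower, 13%). The count of 506 ran from 60 to 709 when 1 library was left out, with the fewest calls without BMP2 replicate 3. The split became 148 higher (1.28%) and 131 lower (1.13%) after median-of-ratios scaling, 135 (1.17%) and 126 (1.09%) after quantile normalization, and 166 (1.44%) and 133 (1.15%) after protein-coding scaling. Between BMP2+RSPO2 and RSPO2, 3015 were called (26.1%), 499 higher (4.32%) and 2516 lower (21.8%). Here the split became 895 higher (7.75%) and 936 lower (8.11%) after median-of-ratios scaling, 876 (7.59%) and 949 (8.22%) after quantile normalization, and 751 (6.5%) and 1132 (9.8%) after protein-coding scaling. Prex1 was at 7.55, 13.1 and 12.5 FPKM with BMP2+RSPO2 and at 1.91, 1.77 and 1.58 FPKM with BMP2 (log2 change 2.10 ± 0.21, adjusted p = 0.00109). Sgms2 was at 138, 186 and 180.3 FPKM with BMP2+RSPO2 and at 69.4, 52.7 and 57.2 FPKM with BMP2 (1.48 ± 0.27, adjusted p = 0.0199). Cd200 was at 12.8, 25.7 and 23.1 FPKM with BMP2+RSPO2 and at 9.17, 7.94 and 6.92 FPKM with BMP2 (1.21 ± 0.29, adjusted p = 0.0433). Each of these was higher in all 3 BMP2+RSPO2 libraries than in any BMP2 library and was called under all 3 scalings. Aspn was at 26.3, 9.32 and 7.23 FPKM with BMP2+RSPO2 and at 64.2, 66.1 and 73.8 FPKM with BMP2 (-2.38 ± 0.36, adjusted p = 0.00915). Acta2 was at 275, 241 and 244 FPKM with BMP2+RSPO2 and at 590.0, 585 and 623 FPKM with BMP2 (-1.24 ± 0.13, adjusted p = 0.00143). Col3a1 and Ptn were also lower with the combination than with BMP2 (-1.62 ± 0.19 and -1.56 ± 0.18, adjusted p = 0.00238 and 0.00238). With 1 library left out at a time, Prex1, Acta2, Col3a1 and Ptn were called against BMP2 in all 12 fits. Aspn was called in 11 (adjusted p = 0.0518 without BMP2 replicate 3), Sgms2 in 9 (highest adjusted p = 0.0821, without BMP2 replicate 2) and Cd200 in 3 (highest adjusted p = 0.135, without BMP2 replicate 3).

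Other main genes of the comparison were not called between the combination and BMP2 alone. Slc36a2 was at 36.3, 69.05 and 62.4 FPKM with BMP2+RSPO2 and at 34.4, 28.2 and 27.8 FPKM with BMP2 (0.83 ± 0.34, adjusted p = 0.159). Ibsp was at 1972, 2885 and 2973 FPKM with BMP2+RSPO2 and at 2156, 1605 and 1724 FPKM with BMP2 (0.50 ± 0.26, adjusted p = 0.250). Alpl was at 24.7, 35.9 and 35.04 FPKM with BMP2+RSPO2 and at 23.2, 18 and 18.7 FPKM with BMP2 (0.64 ± 0.19, adjusted p = 0.0799, and called higher under all 3 scalings and without BMP2+RSPO2 replicate 1). The arms overlapped for Ibsp in replicate 1, and a p above the threshold does not show equal levels. Adam12 (0.30 ± 0.12), Id1 (0.28 ± 0.21) and Gfra2 (-0.55 ± 0.21) were likewise not called. Nkd2, at 0.33, 0.03 and 0.1 FPKM with BMP2, was not called against BMP2 either (0.19 ± 0.17, adjusted p = 0.48). Against RSPO2 alone it was called lower, at 0.3, 0.39 and 0.23 FPKM with BMP2+RSPO2 and at 5.92, 6.52 and 6.58 FPKM with RSPO2 (-2.49 ± 0.17, adjusted p = 9.75e-06). Axin2 was at 4.89, 4.37 and 4.34 FPKM with BMP2+RSPO2 and at 14.4, 9.7 and 11.1 FPKM with RSPO2 (-1.19 ± 0.25, adjusted p = 0.00651). With BMP2 it was at 3.73, 1.43 and 1.66 FPKM, lower than in any BMP2+RSPO2 library; BMP2+RSPO2 against BMP2 gave a log2 change of 0.82 ± 0.25, which was not called (adjusted p = 0.0792) but was with the replicate block (0.0155) and under 2 of the 3 scalings. Nkd2 and Axin2 were lower with the combination than with RSPO2 alone in every library.

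**Figure D5:**
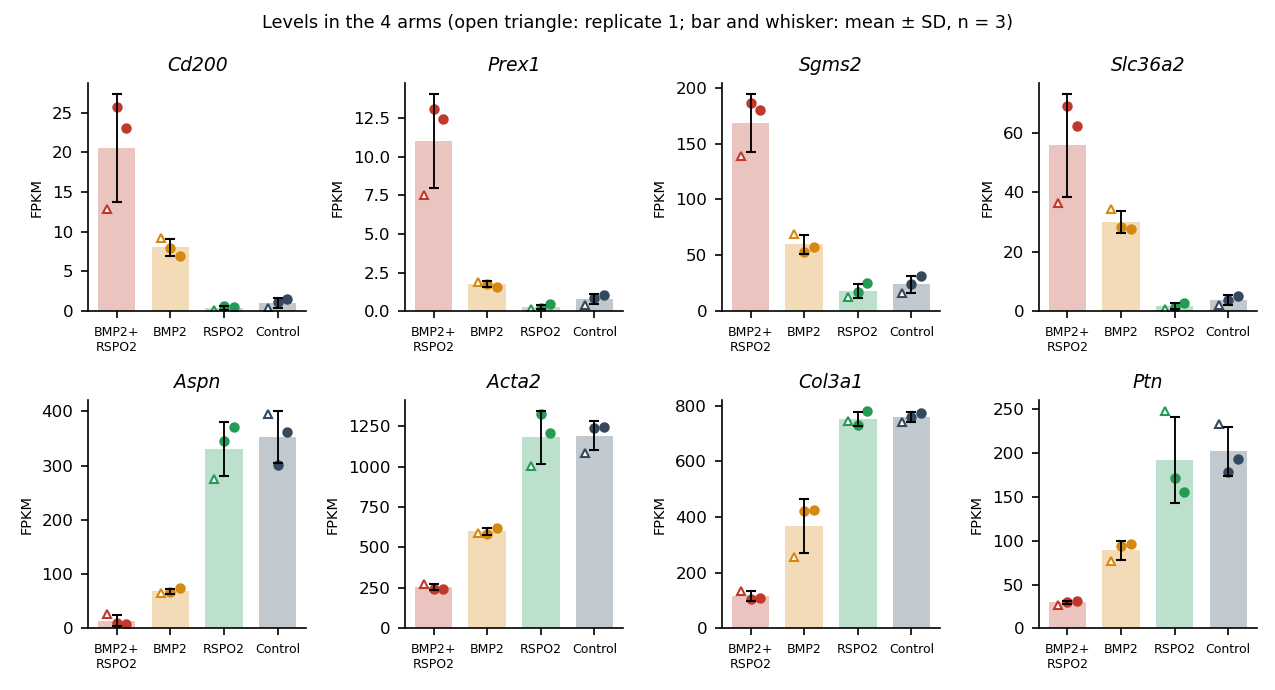
FPKM (y axes, from 0) of 8 genes in the 4 arms, with BMP2+RSPO2, BMP2, RSPO2 and Control from left to right; bars and whiskers are mean ± SD (n = 3), points are libraries and the open triangle is replicate 1. The genes were picked after their values were seen; Prex1, for example, lies at 7.55, 13.1 and 12.5 FPKM with BMP2+RSPO2 and at 1.91, 1.77 and 1.58 FPKM with BMP2.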

How the data were processed

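Poly(A) RNA of 12 cultures, 3 independent replicates in each of 4 arms, was sequenced as stranded libraries. The authors deposited 1 table of FPKM values, rounded to 2 decimals, with 1 value per gene and library. The submitters' processing notes name cutadapt 1.10, FastQC 0.10.1, HISAT2 2.0, StringTie 1.3.4 and edgeR, and the builds GRCm38 and mm10. The roles of these tools are not given in the sources used here, and gene identifiers in the table are those of strain C57BL/6NJ, so no coordinates were taken from it. FPKM shares 1 total per library, so an excess of a few transcripts lowers all others. The table holds no counts and depth is unknown. No per-sample column was left unused, and X-linked and mitochondrial genes were not analysed here.

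Genes at 1 FPKM or more in at least 3 libraries were fitted as log2(FPKM + 1) in 1 linear model over the 4 arms with 8 residual degrees of freedom in limma 3.58.1 (R 4.3.3), whose variance prior followed the mean level. Fold changes on this scale understate those of low genes. Benjamini-Hochberg adjustment ran over all tested genes of a comparison, and genes were called at a two-sided adjusted p under 0.05. The script was tested on simulated data. Figures and summaries used python 3.11.15, pandas 2.3.3, numpy 2.4.6 and matplotlib 3.10.9.

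The members of the comparison and the 42 gene lists were chosen with earlier results of these data known. Of 1148 list entries, 1075 were in the table and 765 were tested, and 63 genes stand in more than 1 list. Counts of called members as deposited stand beside 3.65% higher and 19.4% lower among all tested genes. Genes were named by a rule: a panel of 19 genes (18 tested; Bglap was not analysed here), the 14 largest changes in each direction called with and without BMP2+RSPO2 replicate 1, up to 4 called members per list by smallest p, and further list members as examples; 1 of the 14 largest rises is not reported here. Notum was added after its values were seen, and so was the definition of calls made throughout.

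The replicate numbers were checked as pairs. The labels call replicates independent and name no shared day. Deviations from the arm means of same-numbered BMP2+RSPO2 and Control libraries correlated across genes at r = 0.368, 0.302 and 0.199, and those of BMP2+RSPO2 and BMP2 at 0.362, 0.278 and 0.158, so these numbers were taken as pairs and the replicate number was fitted as a block as an alternative. For BMP2+RSPO2 and RSPO2 the values were 0.161, 0.352 and -0.124, and that comparison is given without the block. RSPO2 libraries correlated with same-numbered Control libraries at 0.631, 0.408 and 0.311, and with BMP2 libraries at 0.398, 0.287 and 0.116. The blocked fit covered all arms, so the RSPO2 libraries were in it under the same replicate numbers. Promoter windows came from RefSeq (GRCm38.p6), with 32851 windows of 300 bases, and the motifs were chosen after the windows had been read. Other alternatives left out single libraries, changed the pseudocount, the filter, the scaling or the variance prior, or fitted only the arms compared.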

Additional observations from a re-analysis of the deposited data

How the results depend on the processing

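Against Control, 2656 genes were called, and 1172 when only the arms compared were fitted. The count was 1626 after quantile normalization, 1697 after median-of-ratios scaling, 1694 after protein-coding scaling and 3994 in replicates 2 and 3 of each arm only; single libraries left out gave 1595 to 2758. With the replicate block, the samples being treated as pairs, 3897 genes were called (620 higher and 3277 lower), and 2642 of the 2656 calls remained; no named gene beyond those given above changed its call with the block. Without BMP2+RSPO2 replicate 1 and with median-of-ratios scaling, an alternative chosen after seeing the data, 1978 were called, 1068 of them higher. Against BMP2, 506 genes were called, and the alternatives gave 2512 in replicates 2 and 3 only, 1710 with the replicate block, 306 without the filter on low values, 261 after quantile normalization, 279 after median-of-ratios scaling, 299 after protein-coding scaling and 35 with only the arms compared; left-out libraries gave 60 to 709. Against RSPO2, 3015 genes were called, and the alternatives gave 1825, 1831 and 1883 under those 3 scalings and 1237 with only the arms compared; left-out libraries gave 1847 to 3058. Pseudocounts of 0.1 and 0.5, a filter of 5 FPKM and both other variance priors kept each count within 1.5 times. Lef1, which was not called, had a log2 change of -0.0331 without BMP2+RSPO2 replicate 1 and of -0.0262 in replicates 2 and 3 only, and with single libraries left out it ran from -0.0331 to 0.312. Col5a1, also not called, ran from -0.0229 (without Control replicate 1) to 0.222 in that way. The cause of these differences was not tested.

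Of 185 called genes followed, 126 were called under all 24 alternatives. The call was lost by 24 under quantile normalization, 18 under median-of-ratios scaling, 22 under protein-coding scaling, 5 without BMP2+RSPO2 replicate 1 and 40 with only the arms compared. Values rest on 3 replicates and 1 clonal line, and without counts the precision of low FPKM values is unknown.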
